A study of Mus musculus with 24 samples.

Results

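Lung RNA of selenium-deficient (SeD) mouse pups breathing room air (RA) was compared between postnatal day 3 (PN3) and postnatal day 1 (PN1). The libraries were chosen by their titles and number 6 of 24 in all, 3 at PN1 and 3 at PN3. Both ages shared the C3H/HeN strain, a FiO2 of 0.21 and parents fed less than 0.01 ppm sodium selenite, and no transgene, deletion or drug is named for any group. The parents began the diet at 3 weeks of age and were bred after another 3 weeks on it. Selenium-sufficient (SeS) pups of the same strain in RA, whose parents received 0.4 ppm sodium selenite, gave another 3 libraries at each age and are set beside the SeD values. The other 12 libraries are titled as from pups in hyperoxia (O2), 3 for each diet and age, and enter the gene filter, the scaling and the estimate of the spread. Their FiO2 is given as 0.85 in 11 and as 0.21 in SeS O2 PN1 replicate 2, against its title. RNA came from perfused lung tissue and was sequenced as stranded poly(A) libraries, so every value is a mixture of all lung cell types. The litters are not given, and the p-values measure the spread between these libraries. The sheet of groups holds 1 day of sacrifice for all 24 libraries, so pups of the 2 ages were born on different days, and age cannot be told apart from litter or day of birth.

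In the first days of life the mouse lung passes from the saccular stage, with wide air sacs lined by surfactant-making type 2 and thin type 1 cells, toward alveolarization, when myofibroblasts that carry the PDGF receptor alpha and a growing capillary bed raise new septa. Cell division, clearance of fetal lung fluid, the arrival of leukocytes and the maturing of ciliated airway cells overlap in time with that step. Selenium is built into selenoproteins as the amino acid selenocysteine, among them the glutathione peroxidases (Gpx) that reduce peroxides and the thioredoxin reductases (Txnrd) that keep thioredoxin reduced. When selenium is scarce, the mRNAs of some selenoproteins, Gpx1 and Selenow foremost, are known to decay, while others are spared.

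Library totals of the SeD RA pups were 26.6 to 32.1 M counts (M, 1000000) at PN1 and 32.9 to 38 M at PN3. Lung markers were abundant in all 6, with the surfactant gene Sftpc at 8569 to 13540 counts per M (CPM) and the type 1 cell gene Ager at 1535 to 2520 CPM of the library total. Ddx3y, a Y-linked gene, reached 1 CPM of the library total in 2 of 3 libraries at each age, and in 1 of 3 at each age of SeS RA. Liver genes summed to 177 to 226 CPM at PN1 and 238 to 739 CPM at PN3, heart muscle genes to 516 to 1113 and 448 to 1055 CPM, and thymus genes to 32.1 to 48.7 and 40.2 to 90.4 CPM. A pair of PN1 libraries stood apart in genes that lung is not expected to use. As CPM of the library total, odorant and vomeronasal receptor genes together took 335 CPM in PN1 replicate 1 and 880 CPM in PN1 replicate 2. They took 30.1 CPM in PN1 replicate 3 and 22 to 34.7 CPM at PN3. On that scale the same genes took 26.3 to 46.3 CPM in SeS RA and 113 to 479 CPM in the O2 libraries. Genes under 5 CPM held 2.05% of the counts of PN1 replicate 2, against 0.932% to 1.35% in the other 5 libraries. The trimmed-mean scaling factor (TMM) of that library was 1.22, and the other 5 lay between 0.968 and 1.04.

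Of 23831 genes tested, 5174 (21.7%) were called between PN3 and PN1, 1244 higher (5.22%) and 3930 lower (16.5%) at PN3. A call was an adjusted p under 0.05 in edgeR's quasi-likelihood test with an absolute log2 fold change above 0.25. Most of the lower calls, 3797, fell on genes under 5 CPM, the range in which the PN1 libraries with receptor gene reads had their excess. Only the 12323 genes with a mean of at least 5 CPM over the 6 libraries are described from here on. The limit is on the mean of both ages, so a gene low at 1 age could pass through the other. Examples below are Pax5, Spib and Ccl11, with every PN3 library under 5 CPM, and Prokr2 and Gria1, with every PN1 library under 5 CPM. Just inside the limit stood Trbc2 at 5.01 CPM with a log2 fold change of 1.02, and just outside Gm14303 at 4.999 CPM with -0.11.

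Above the limit 1267 genes were called (10.3%), 1134 higher (9.2%) and 133 lower (1.08%) at PN3. Called log2 fold changes ran from -1.52 to 2.75, and 45 of them exceeded 1 in absolute value. An unadjusted p under 0.05 was reached by 2872 genes (23.3%). The 3 libraries of PN3 did not overlap those of PN1 in 3454 genes (28%), above in 2966 (24.1%) and below in 488 (3.96%). The median log2 fold change of the 12323 genes was 0.13, and 0.05 without PN1 replicate 2, and each change below is to be read relative to that shift. With TMM factors taken from the genes of at least 5 CPM, the median was at 0 and the split of calls changed from 1134 higher and 133 lower to 353 higher and 435 lower. List counts under that scaling are to be read beside these numbers. Without PN1 replicate 2 there were 140 calls, 99 higher and 41 lower. Leaving out PN1 replicate 3 gave 2050 calls, PN3 replicate 2 gave 270 and PN3 replicate 3 gave 564.

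**Figure D1:**
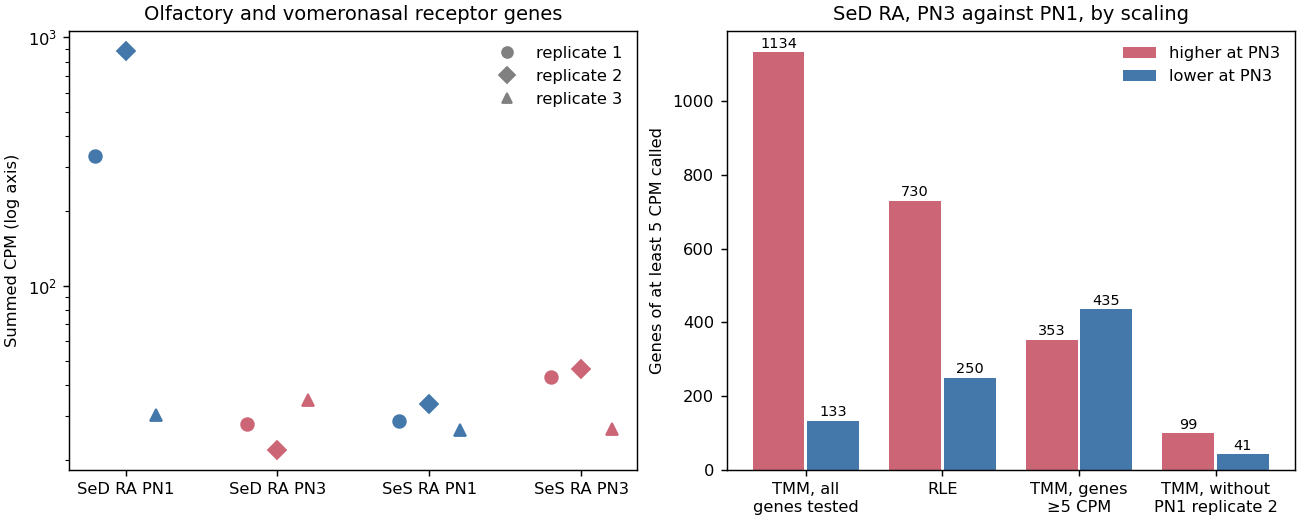
Left, summed CPM (of the library total) of odorant and vomeronasal receptor genes on a log axis for each RA library by group. PN1 replicates 1 and 2 of SeD RA sit at 335 and 880 CPM while the other RA libraries lie between 22 CPM and 46.3 CPM. Right, bars give the number of genes called higher and lower at PN3 against PN1 in SeD RA under 3 scalings and without PN1 replicate 2. The split moves from 1134 and 133 to 353 and 435 with factors from the genes of at least 5 CPM, and to 99 and 41 without that library.

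Many cell division genes were higher at PN3. Of 36 genes listed for the cell cycle and DNA replication, all of at least 5 CPM, 21 rose at PN3 (58.3%, against 9.2% of all genes) and 0 fell. Their median log2 fold change was 0.71 against 0.13 for all genes. In 31 of the 36 the libraries of the 2 ages did not overlap, against 28% of all genes, 24.1% with PN3 above. In bulk tissue, a change in the number of cells of a type and a change in RNA per cell cannot be told apart. Promoters of the 4 members with the smallest p among those in the RefSeq table are shown here for the CCAAT box, the site of NF-Y, and for TTTGAA, the core of the cell cycle homology region, since both elements are known from genes expressed in late cell cycle. Each run is the 120 bases before the RefSeq start site (build GRCm38.p6), 5′ to 3′ on the strand of the gene, with capitals at CCAAT or its complement ATTGG and at TTTGAA or its complement TTCAAA.
Ccnb1, chr13:100786487-100786606, minus strand: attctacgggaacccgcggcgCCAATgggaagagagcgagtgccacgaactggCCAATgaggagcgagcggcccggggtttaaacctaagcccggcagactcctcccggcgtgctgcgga
Bub1, chr2:127831860-127831979, minus strand: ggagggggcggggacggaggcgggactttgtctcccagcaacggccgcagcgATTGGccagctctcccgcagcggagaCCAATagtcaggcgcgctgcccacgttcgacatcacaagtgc
Cenpf, chr1:189688087-189688206, minus strand: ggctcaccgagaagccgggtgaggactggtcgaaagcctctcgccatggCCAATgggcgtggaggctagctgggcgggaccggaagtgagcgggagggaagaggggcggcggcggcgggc
Kif11, chr19:37376262-37376381, plus strand: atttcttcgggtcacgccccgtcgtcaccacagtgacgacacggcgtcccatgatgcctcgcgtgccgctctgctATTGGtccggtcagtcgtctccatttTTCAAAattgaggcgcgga

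All 4 runs hold at least 1 CCAAT box, and Kif11 alone of them also holds the TTTGAA core. Of the 36 listed genes 29 matched the promoter table, and 22 of them (75.9%) held CCAAT on either strand between 250 bases before and 50 after the start, against 37.9% of 27025 promoters. TTTGAA stood in 12 (41.4%), against 18.1% of all promoters, and all 12 held both elements, against 7.12%. Either motif was counted whether or not it overlapped the other. A match describes the sequence and is not a bound site.

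Ccnb1 (ENSMUSG00000041431, GRCm39 chromosome 13, 100915153 to 100923116, minus strand) encodes cyclin B1, which drives entry into mitosis. Its values were 16.3, 24 and 29.9 CPM at PN1 and 37.9, 56 and 53.7 CPM at PN3. Every PN3 library stood above every PN1 library, with the lowest value in PN1 replicate 1, and the log2 fold change was 1.07 ± 0.25 (SE, n = 3 per age, adjusted p = 0.00736 by edgeR's quasi-likelihood test). Cenpf, a kinetochore protein, stood at 41.8, 70.5 and 82.3 CPM at PN1 and 98.8, 154 and 149 CPM at PN3, a log2 fold change of 1.05 ± 0.27 (adjusted p = 0.00958). Bub1, a kinase of the spindle checkpoint, stood at 15.3, 19.9 and 23.3 CPM and then 28, 42.6 and 42.2 CPM (0.95 ± 0.24, adjusted p = 0.00948). These mitotic genes separated the ages fully, and in each of them PN1 replicate 1 was the lowest PN1 library and PN3 replicate 1 the lowest PN3 library. Kif11, the motor that separates spindle poles, rose from 34.3, 48.3 and 56 CPM to 72.2, 93.7 and 89.2 CPM (0.88 ± 0.22, adjusted p = 0.00988), and Cdk1, the kinase partner of cyclin B1, from 37.8, 42.8 and 57.1 CPM to 66, 85.8 and 88.1 CPM (0.80 ± 0.22, adjusted p = 0.0124). Mki67, the Ki-67 antigen of cycling cells, rose by 0.85 on the log2 scale, with 182, 269 and 331 CPM at PN1 and 381, 518 and 510.2 CPM at PN3.

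The list holds genes of mitosis and of DNA replication. Of 18 mitotic members 15 rose (83.3%) with a median log2 fold change of 0.85, and of 18 replication members 6 rose (33.3%) with a median of 0.47. Of all genes 9.2% rose. This division of the list was made after the values were seen, and the difference was not tested. Ccne2, cyclin E2 of the entry into S phase, rose from 22, 15.1 and 18.8 CPM to 30.4, 37 and 39 CPM (0.93 ± 0.23, adjusted p = 0.00905). Pcna, the sliding clamp of DNA polymerase, rose from 119, 101 and 144 CPM to 156, 164 and 166 CPM (0.42), and Mcm4, a subunit of the replicative helicase, from 69.1, 64.1 and 79 CPM to 92.1, 103 and 101 CPM (0.48). Ccnd1, cyclin D1, stood at 161, 134 and 156 CPM and 159, 182 and 179.9 CPM with an adjusted p of 0.506. The summed level of the mitotic genes was 740 CPM, 1049 CPM and 1247 CPM in the PN1 libraries and 1458 CPM, 2043 CPM and 2033 CPM at PN3. The number of calls rested on single libraries. It was 11 of 36 with the scaling from genes of at least 5 CPM, 0 without PN1 replicate 2, at a median log2 fold change of 0.75, 4 without PN1 replicate 1 and 2 without PN3 replicate 2. In SeS RA the same 36 genes had a median log2 fold change of 0.70 with 0 calls, and Ccnb1 went from 20.1 to 33 CPM to 36 to 48.3 CPM. The difference of the age steps for Ccnb1 was 0.26 ± 0.35 (unadjusted p = 0.466).

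**Figure D2:**
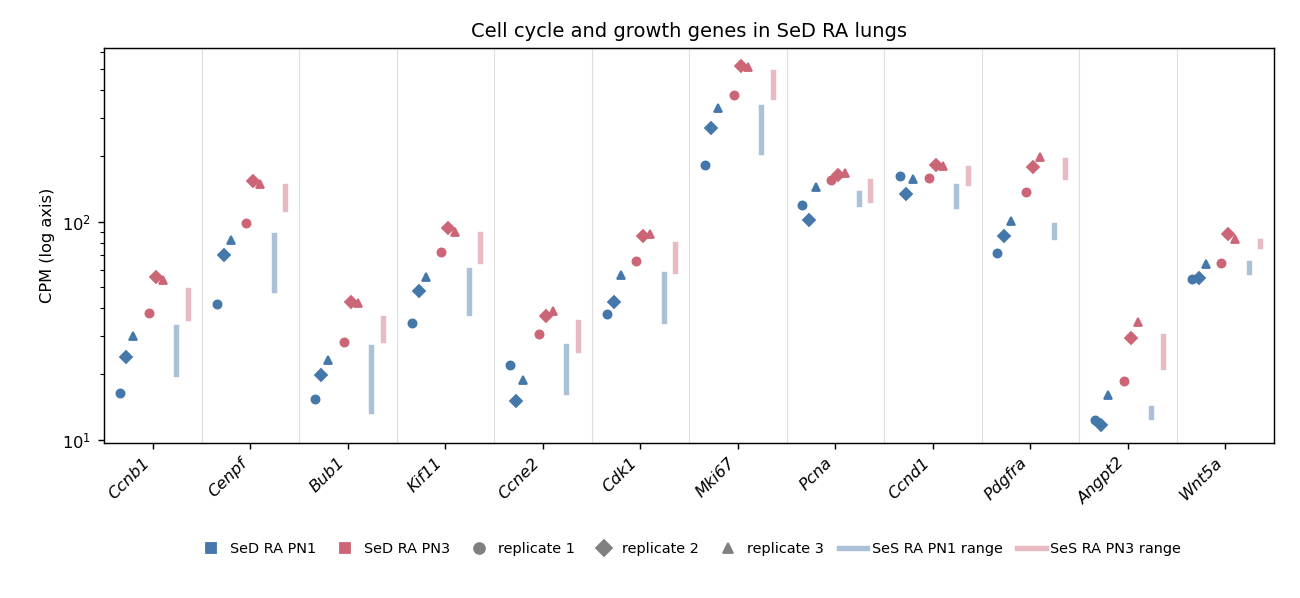
CPM of 12 genes on a log axis in each SeD RA library, with circles, diamonds and triangles for replicates 1, 2 and 3 at PN1 and PN3, and pale bars for the range of the SeS RA libraries. The mitotic genes Ccnb1, Cenpf, Bub1 and Kif11 do not overlap between the ages, whereas Ccnd1 does, and Ccnb1 reaches 36 to 48.3 CPM in the SeS libraries at PN3.

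To find changes that rest on neither 1 library nor 1 scaling, calls were followed through 3 other scalings or gene sets and through each of the 6 libraries left out in turn. Of the 1267 calls, 136 stood under all the scalings, 106 without any 1 library, and 71 under all of these, 49 higher and 22 lower. In all 71 the ages did not overlap, which this choice favours. The higher ones ran from 0.40 to 2.75 on the log2 scale and the lower ones from -1.47 to -0.42. In SeS RA 46 of the 49 and 18 of the 22 had the same sign, against 66.6% of all genes of at least 5 CPM. There 14 and 6 were called, against 0.722% of all genes called higher and 0.365% called lower. Of the called genes chosen by size or list and described here, Prokr2, Aard, Egfem1, Trim67, Megf10, Col24a1, Slitrk6, Gria1, Angpt2, Pdgfra, Ccdc153, Cd79a, Cd79b, Ms4a1, Igkc, Mmp8, Stfa2l1, Spp1, Ccl11, Junb, Gpx1 and Selenow kept their call without any 1 library, and the others lost it without at least 1. Cbx5, the heterochromatin protein HP1 alpha, rose from 139, 120.4 and 159 CPM to 199, 220.2 and 209.6 CPM (0.59 ± 0.11, adjusted p = 0.00472). Skp2, the ubiquitin ligase subunit that removes the inhibitor p27, rose from 15.4, 12.2 and 10.8 CPM to 23.2, 27 and 26.1 CPM (0.99 ± 0.19, adjusted p = 0.00472). E2f6, a repressor of the E2F family, rose from 25.9, 21.1 and 22.5 CPM to 31.6, 34.1 and 34.5 CPM (0.53 ± 0.08, adjusted p = 0.00472). Each of these kept the ages apart with a narrow spread at PN3. Ect2, needed for cytokinesis, Ska2 and Mis12 of the kinetochore, and Sgo2a, a guardian of sister chromatid cohesion, were also among the 49, as were the splicing factor Srsf1 and the nuclear export receptor Xpo1. They rose by 0.87 (Ect2), 0.69 (Ska2), 0.65 (Mis12), 1.00 (Sgo2a), 0.60 (Srsf1) and 0.59 (Xpo1) on the log2 scale. These genes were singled out after their values were seen.

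The 12 largest called rises without overlap of the ages were those of Ccnb1 and of 11 genes of varied function. Prokr2 (ENSMUSG00000050558, GRCm39 chromosome 2, 132179653 to 132227368, minus strand), a receptor for prokineticins, went from 1.34, 3.35 and 4.35 CPM at PN1 to 11.5, 25.1 and 24.3 CPM at PN3, a log2 fold change of 2.75 ± 0.47 (adjusted p = 0.00472). PN3 replicate 1 was the lowest of its age and still stood well above all PN1 libraries. In SeS RA it rose by 3.68 (adjusted p = 0.00441). Aard rose from 7.63, 7.67 and 13.6 CPM to 20.8, 32.2 and 32.1 CPM (1.56 ± 0.26, SeS 1.69, called), and Egfem1 from 19.1, 17.8 and 23.8 CPM to 34.6, 49.6 and 60.7 CPM (1.26 ± 0.19, SeS 1.31, called). Trim67, Megf10, a receptor for engulfment, Tenm4, a teneurin of cell adhesion, and Col24a1, a fibrillar collagen chain, rose by 1.21, 1.17, 1.13 and 1.13, and each was called in SeS RA as well. Gria1, a glutamate receptor subunit, stood at 3.07, 3.32 and 3.55 CPM and then at 7.23, 7.99 and 5.7 CPM (1.07 ± 0.18, SeS 1.08, called). Slitrk6, a leucine-rich repeat membrane protein, rose from 21.6, 15.3 and 23.7 CPM to 29.5, 52.7 and 45.5 CPM (1.08 ± 0.22), against 0.41 without a call in SeS RA. The helicase Pif1 and the ubiquitin ligase Trim59 rose by 1.12 and 1.08, with no call in SeS RA. Of these 11 genes, Prokr2, Aard, Egfem1, Trim67, Col24a1, Slitrk6 and Gria1 kept their call in 17 of 18 alternative settings, the exception being a fit of the 6 libraries alone.

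Among genes of the septal myofibroblast and of vessels Pdgfra and Angpt2 kept their call without any 1 library. Pdgfra (ENSMUSG00000029231, GRCm39 chromosome 5, 75311994 to 75358876, plus strand), the receptor of myofibroblast precursors, stood at 71.9, 85.8 and 100.1 CPM at PN1 and 136, 178 and 198 CPM at PN3. All PN3 libraries were above all PN1 libraries, and the log2 fold change was 0.99 ± 0.15 (adjusted p = 0.00472), against 0.90 ± 0.15 in SeS RA (85.3 to 96.3 CPM to 159 to 191 CPM, adjusted p = 0.013). Of 17 genes for myofibroblasts and smooth muscle, 3 rose (17.6%, against 9.2% of all genes) and 0 fell, with a median of 0.22. The others called were Wnt5a, a ligand of this lineage, at 54.7, 54.9 and 64.2 CPM and 64.7, 87.9 and 82.9 CPM (0.44 ± 0.14, adjusted p = 0.0256), and Myh11, smooth muscle myosin, at 215, 189.6 and 181 CPM and 256, 324 and 378 CPM (0.71 ± 0.24, adjusted p = 0.0392). Pdgfra was the single call of the list without PN1 replicate 2 or with the scaling from genes of at least 5 CPM. Acta2, smooth muscle actin, was not called, with 529, 555 and 612 CPM at PN1 and 648, 729 and 828 CPM at PN3.

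Of 18 genes of elastic fibre assembly, 2 rose (11.1%, near the 9.2% of all genes) and 0 fell, and 0 were called with the scaling from genes of at least 5 CPM. Ltbp2, a binding protein of the microfibril, rose from 149, 151 and 147 CPM to 172, 272 and 263 CPM (0.66 ± 0.20, SeS 0.97, called), and Loxl2, a cross-linking oxidase, from 95, 96.4 and 117 CPM to 103, 156 and 152 CPM (0.41 ± 0.15). Eln, elastin itself, stood at 3868, 3651 and 3998 CPM and 3720.3, 3679 and 3508 CPM with a log2 fold change of -0.08 and an adjusted p of 0.803. None of 17 collagen chains was called (median 0.07), and of 15 lipofibroblast and matrix fibroblast genes 0 rose and 3 fell (20%, against 1.08% of all genes, median -0.09). Those were Inmt, from 73.3, 57.6 and 85.1 CPM to 57.7, 22.1 and 15.5 CPM (-1.18 ± 0.41, adjusted p = 0.0453), Ces1d, from 321, 245 and 326 CPM to 240, 212 and 212 CPM (-0.42), and Pi16 (-0.66), and 1 of them was called without PN1 replicate 2. Of 20 capillary genes 1 rose (5%, against 9.2% of all genes) and 0 fell. It was Angpt2, a ligand of the Tie2 receptor, at 12.4, 11.7 and 16 CPM and then 18.6, 29.1 and 34.5 CPM (1.04 ± 0.22, adjusted p = 0.00552, SeS 0.90, adjusted p = 0.0558). Pecam1, present on all endothelium, stood at 645, 599.8 and 697 CPM and 634, 621 and 659.5 CPM.

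Genes of 3 signalling families that shape septation gave few calls, and the shares called higher were 6.25% for Wnt, 10% for Notch and 16% for TGF-beta and BMP, against 9.2% of all genes. In the Wnt list 2 of 32 genes rose, Wnt11 and Wnt5a, and 0 fell (median 0.17); Wnt11, a ligand that signals without beta-catenin, went from 15.5, 16.6 and 18.2 CPM to 18.6, 30.6 and 32.8 CPM (0.71 ± 0.20, SeS 0.95, called). The beta-catenin target Axin2 and the receptors Fzd1 and Fzd8 had log2 fold changes of 0.32, 0.26 and 0.12, and the ligand Wnt5b of 0.25, with no call. In the Notch list 2 of 20 rose and 0 fell (median 0.04). They were Hey1, a target of the pathway, from 31.7, 24.8 and 28.7 CPM to 44.1, 43.7 and 45.2 CPM (0.64 ± 0.16, adjusted p = 0.00883), and the receptor Notch1, from 93.7, 90.9 and 99.5 CPM to 107, 131 and 122 CPM (0.34 ± 0.11, adjusted p = 0.0342). Notch2, Notch3 and the ligand Jag1 were not called (0.08, 0.31 and -0.14). The ligand Dll1 stood at 13.4, 17.4 and 17.5 CPM and 11.1, 12.1 and 13.2 CPM (-0.41, not called) where SeS RA had 0.46, a difference of the age steps of -0.87 ± 0.27 (unadjusted p = 0.00383, adjusted p = 0.127). In the TGF-beta and BMP list 4 of 25 rose and 0 fell (median 0.14). The ligand Bmp6 went from 41.9, 32.4 and 43.8 CPM to 51.4, 65.9 and 67.9 CPM (0.65 ± 0.17, SeS 0.83, called), and the endothelial co-receptor Eng from 172, 163 and 187 CPM to 210.4, 281 and 286 CPM (0.58 ± 0.16, SeS 0.71, called). The inhibitor Smad6 rose by 0.40 and the ligand Tgfb2 by 0.52. In each of these 3 lists 0 members were called without PN1 replicate 2, and with the scaling from genes of at least 5 CPM the Wnt list had 1 higher, the Notch list 1 higher and 1 lower, and the TGF-beta and BMP list 1 higher and 2 lower.

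In the alveolar epithelium no listed gene was called. The 19 type 2 cell genes and the 14 type 1 cell genes had median log2 fold changes of -0.19 and -0.13. Sftpc stood at 12772, 8731 and 13999 CPM at PN1 and 11396, 8752 and 8934 CPM at PN3 on the TMM scale, and the groups overlapped. Slc34a2, the phosphate carrier of type 2 cells, stood at 1394, 1153 and 1570.2 CPM and 1103, 906 and 774 CPM, which did not overlap, but its adjusted p was 0.0912. Ager stood at 2423, 1632 and 2131 CPM and 1845, 1608 and 1554 CPM (-0.31, adjusted p = 0.366). Igfbp2, a type 1 cell gene of late maturation, stood at 63.2, 67.9 and 85.3 CPM and 114, 138 and 161 CPM with a log2 fold change of 0.93 ± 0.48 and an adjusted p of 0.181. Of 15 genes of lung fluid clearance 1 fell (6.67%, against 1.08% of all genes), at a median of -0.21. It was the tight junction protein Cldn3 (-0.53, adjusted p = 0.0277).

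Ciliated cell genes fell in part. Of 12 airway genes 1 fell (8.33%, against 1.08% of all genes), and no member had a positive log2 fold change (median -0.47). That 1 was Ccdc153, a coiled-coil gene of ciliated cells, with 13.4, 7.89 and 8.67 CPM at PN1 and 5.13, 5.11 and 4.9 CPM at PN3 (-0.98 ± 0.25, adjusted p = 0.0105, SeS -1.12, called). Foxj1, the master regulator of motile cilia, stood at 47, 30.2 and 26.3 CPM and 29.6, 21.5 and 17.2 CPM (-0.60, adjusted p = 0.0626). A wider list of genes with cilium names, drawn up after the values were seen, held 56 members of at least 5 CPM. Of these 8 fell (14.3%, against 1.08% of all genes) and 2 rose (3.57%, against 9.2%), at a median of -0.37. The fall of Cfap43 was from 19.2, 16.8 and 14 CPM to 13.4, 7.64 and 8.01 CPM (-0.78, SeS -1.17, called), and Spag17 and Cfap65 fell with log2 fold changes of -0.88 and -1.07. The 2 that rose were Spag5, a mitotic spindle protein despite its name, and Cfap97. With the scaling from genes of at least 5 CPM 19 of the 56 fell and 0 rose. Over all genes that scaling moved the lower calls from 133 to 435. Without PN1 replicate 2 there were 2 lower calls in the list and 41 over all genes. SeS RA had 11 lower calls in the list, against 0.365% of all genes, at a median of -0.75.

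Genes of B cells, a part of the lymphocyte list set off after the values were seen, had a median of -1.12 on the log2 scale. Of 10 lymphocyte genes of at least 5 CPM (23 listed), 6 fell (60%, against 1.08% of all genes) and 0 rose, and all 6 were genes of the B lineage, of which 7 passed the limit of 9 listed. Cd79a (ENSMUSG00000003379, GRCm39 chromosome 7, 24596740 to 24601622, plus strand), a signalling chain of the B cell receptor, stood at 14.4, 15.6 and 13.4 CPM at PN1 and 4.81, 4.46 and 6.4 CPM at PN3. The highest PN3 library stood well below the lowest PN1 library, and the log2 fold change was -1.47 ± 0.32 (adjusted p = 0.00571). Its partner Cd79b fell from 19.7, 17.1 and 20.1 CPM to 9.88, 8.23 and 10.3 CPM (-1.01 ± 0.15, adjusted p = 0.00472), and Ms4a1, which encodes CD20, from 18.5, 15.5 and 17.6 CPM to 8.03, 7.77 and 9.76 CPM (-1.01 ± 0.21, adjusted p = 0.00494). Igkc, the constant part of the kappa light chain, fell from 22.8, 20 and 20.9 CPM to 9.37, 7.61 and 9.55 CPM (-1.26 ± 0.27, adjusted p = 0.00522). Ighm, the heavy chain of IgM, fell from 55.4, 60.5 and 52.9 CPM to 26.1, 21.9 and 29.4 CPM (-1.12 ± 0.31, adjusted p = 0.0139), and Pax5, the factor that fixes B cell identity, from 7.27, 9.2 and 7.38 CPM to 2.53, 2.74 and 3.79 CPM (-1.40 ± 0.34, adjusted p = 0.00809). In all 6 the ages were wide apart and the libraries of an age close together. Pax5 lay under 5 CPM in every PN3 library and passed the limit only through PN1, which favours its place among the falls. Ebf1, which stromal cells express as well, stood at 21.3, 22.7 and 22.9 CPM and 17.7, 25.1 and 23.7 CPM and was not called. Spib, a factor of B cells and plasmacytoid dendritic cells, fell from 8.61, 7.4 and 7.7 CPM to 2.42, 3.74 and 4.28 CPM (-1.18 ± 0.40, adjusted p = 0.0397), and lost its call when any 1 of the 6 libraries was left out.

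The B cell genes summed to 163 to 169 CPM in the PN1 libraries and to 81 to 96.3 CPM at PN3, and they were alike in the PN1 libraries with and without receptor gene reads. All 6 calls remained with the scaling from genes of at least 5 CPM and in the fit of the 6 SeD RA libraries alone, and 4 remained without PN1 replicate 2. None of them was called in SeS RA. The median log2 fold change there was 0.19 over the 7 B cell genes, Ebf1 included, and Cd79a stood at 6.84 to 8.89 CPM at PN1 and 6.92 to 8.57 CPM at PN3, Igkc at 11.3 to 14.9 CPM and 13.8 to 16.4 CPM, and Ighm at 28.4 to 38.5 CPM and 36.9 to 52.7 CPM. The SeD value at PN1 was thus above the SeS range and the value at PN3 below it for Cd79a and Igkc. The test of the difference between the age steps gave -1.49 ± 0.45 for Cd79a (unadjusted p = 0.00318, adjusted p = 0.123), -1.48 ± 0.37 for Igkc (unadjusted p = 0.000742, adjusted p = 0.106), -0.84 ± 0.22 for Cd79b (unadjusted p = 0.000886, adjusted p = 0.106) and -1.74 ± 0.47 for Pax5 (unadjusted p = 0.00148, adjusted p = 0.107). An unadjusted p under 0.05 was reached by 6 of the 7 genes, against 6.8% of all genes, and none passed the adjustment over all genes in edgeR. The B cell genes were set off after their fall in SeD RA was seen. The difference reuses those SeD libraries, which favours a small p in it with edgeR and with DESeq2. These genes mark the same cell type and are no separate evidence. With DESeq2 the adjusted p of the difference was 0.0261 for Cd79a, 0.00989 for Igkc, 0.0113 for Cd79b and 0.0168 for Pax5.

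Neutrophil genes fell in several members as well. Of 11 genes of at least 5 CPM (15 listed), 6 fell (54.5%, against 1.08% of all genes) and 0 rose. All 11 log2 fold changes were negative (median -0.97). In 10 the ages did not overlap, against 28% of all genes, 3.96% with PN3 below. Mmp8, neutrophil collagenase, stood at 13.5, 17.6 and 26.5 CPM at PN1 and 10.3, 9.49 and 10.4 CPM at PN3 (-0.93 ± 0.21, adjusted p = 0.0062). Retnlg, a granulocyte resistin-like protein, fell from 9.73, 10.9 and 19.2 CPM to 6.15, 5.57 and 5.11 CPM (-1.24 ± 0.32, adjusted p = 0.0108), and S100a9, a calprotectin subunit, from 119, 125 and 196 CPM to 79.2, 72.2 and 72.8 CPM (-0.97 ± 0.31, adjusted p = 0.03). In each of these PN1 replicate 3 was the highest library. S100a8, the other calprotectin subunit, the chemokine receptor Cxcr2 and the growth factor receptor Csf3r fell too, with log2 fold changes of -0.97, -0.59 and -0.51. Stfa2l1, a stefin that neutrophils express, fell from 12.1, 13.8 and 18.2 CPM to 6.81, 6 and 6.19 CPM (-1.21 ± 0.28, adjusted p = 0.00691). The granule genes Ltf, Camp and Ngp had log2 fold changes of -1.33, -1.33 and -1.28 and were not called. The list summed to 408, 481 and 620 CPM in the PN1 libraries and to 254 to 305 CPM at PN3. Between 3 and 4 members were called when any 1 library was left out, and 2 in the fit of the 6 libraries alone. In that fit Mmp8, Retnlg, S100a9, Cxcr2 and Csf3r lost their call, so at least 1 of those 2 was not called in the main fit. In SeS RA the median was -0.57 with 0 calls, and the difference of the age steps had no adjusted p under 0.05.

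**Figure D3:**
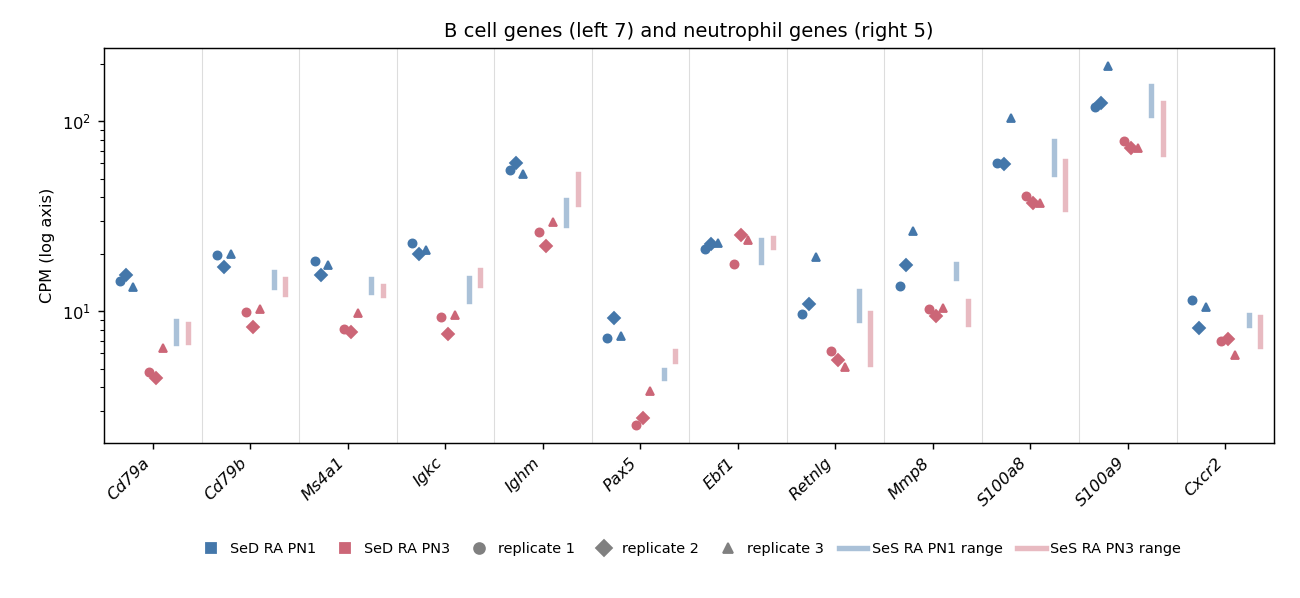
CPM on a log axis of 7 B cell genes and 5 neutrophil genes in each SeD RA library (circles, diamonds and triangles for replicates 1, 2 and 3), with pale bars for the range in SeS RA. For B cell genes other than Ebf1 the SeD PN1 points lie above the PN3 points without overlap, whereas the SeS ranges of Cd79a are 6.84 to 8.89 CPM and 6.92 to 8.57 CPM, and the neutrophil genes are lower at PN3 in the SeD libraries.

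Macrophage genes did not move together. Of 22 genes 3 fell (13.6%, against 1.08% of all genes) and 0 rose, with a median of 0.11, and 1 was called without PN1 replicate 2. Spp1, osteopontin, fell from 36.9, 23.8 and 45.7 CPM to 11, 16.2 and 12.9 CPM (-1.41 ± 0.30, adjusted p = 0.00559), with -1.68 in SeS RA (called). Chil3, a chitinase-like protein of alveolar macrophages, fell from 16.3, 7.64 and 11.8 CPM to 8.52, 3.95 and 3.08 CPM (-1.20 ± 0.41, SeS -1.93, called), and the lipid receptor Trem2 from 6.47, 5.79 and 6.87 CPM to 5.04, 2.8 and 4.43 CPM (-0.64 ± 0.21). The monocyte and macrophage receptor Csf1r stood at 91.8, 104 and 89.6 CPM and 118, 108 and 100.3 CPM and was not called. Ccl11, eotaxin, which attracts eosinophils, fell from 8.06, 5.73 and 8.15 CPM to 2.85, 2.39 and 2.96 CPM (-1.42 ± 0.34, adjusted p = 0.00761, SeS -1.29, not called). Among 6 genes of mast cells, eosinophils and basophils 1 fell (16.7%, against 1.08% of all genes). It was the mast cell tryptase Tpsb2, from 23.7, 35.7 and 39 CPM to 23, 20.2 and 16.6 CPM (-0.72 ± 0.20, adjusted p = 0.0146). That call was lost without PN1 replicate 2, PN1 replicate 3 or PN3 replicate 3, and the log2 fold change ran from -0.93 to -0.35 over the alternatives. In SeS RA Tpsb2 had 0.40, and the difference of the age steps was -1.12 ± 0.28 (unadjusted p = 0.000753, adjusted p = 0.106, DESeq2 adjusted p = 0.00697).

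Immediate early genes respond within minutes to growth factors and other stimuli, and a few were higher at PN1. Of 18 genes 4 fell (22.2%, against 1.08% of all genes) and 0 rose (median -0.46). Dusp1, a phosphatase of MAP kinases that glucocorticoids also induce, fell from 166, 149 and 198 CPM to 64.5, 48.8 and 66.1 CPM (-1.52 ± 0.41, adjusted p = 0.0129), the steepest called fall among the genes described. In SeS RA it stood at 45.9 to 96.6 CPM and 53.2 to 62.9 CPM. Nr4a1, an orphan nuclear receptor, fell from 31.6, 64.9 and 71.4 CPM to 19.6, 21.5 and 18.7 CPM (-1.49 ± 0.41, adjusted p = 0.0132), against 0.15 in SeS RA, with a difference of -1.64 ± 0.57 (unadjusted p = 0.00915, adjusted p = 0.16). Junb, an AP-1 subunit, fell from 72, 55.3 and 71.5 CPM to 42.4, 39 and 36.6 CPM (-0.75 ± 0.20, adjusted p = 0.0115), and Ier2 from 73.3, 61.7 and 81.3 CPM to 49.8, 51.3 and 56.8 CPM (-0.45 ± 0.15). The spread differed between members, and Egr1 stood at 57.4, 19.7 and 16.7 CPM and 13.9, 13.7 and 18.7 CPM without a call, 1 PN1 library being far above the rest. The number of calls was 8 with the scaling from genes of at least 5 CPM. That scaling gave 435 lower calls over all genes in place of 133. The number was 1 without PN1 replicate 2 and 2 in the fit of the 6 libraries alone. Among 14 glucocorticoid-responsive genes 2 fell (14.3%, against 1.08% of all genes), Dusp1 and the receptor feedback inhibitor Errfi1, which went from 170.3, 179 and 280 CPM to 136, 103 and 94.2 CPM (-0.92 ± 0.25), and 0 were called without PN1 replicate 2. Sfi1, a centriole protein gene, was among the 12 steepest falls (-1.25 ± 0.28), but its levels of 33.6, 56.6 and 16.7 CPM at PN1 and 15.6, 14.4 and 15.1 CPM at PN3 were highest in the 2 libraries with receptor gene reads.

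Among selenoprotein mRNAs Gpx1 and Selenow fell and Txnrd1 rose. Of 24 listed, 19 were of at least 5 CPM, with a median of -0.06. Of these 2 fell (10.5%, against 1.08% of all genes) and 1 rose (5.26%, against 9.2%). Gpx1 (ENSMUSG00000063856, GRCm39 chromosome 9, 108216102 to 108217546, plus strand), the cytosolic glutathione peroxidase, stood at 141, 147 and 187 CPM at PN1 and 85.4, 67.6 and 74 CPM at PN3. The ages did not overlap, and the log2 fold change was -1.06 ± 0.18 (adjusted p = 0.00472). SeS RA pups had 348 to 403 CPM at PN1 and 272 to 352 CPM at PN3, a log2 fold change of -0.32 ± 0.18 without a call, so that every SeD library lay below every SeS library. The difference of the age steps was -0.75 ± 0.25 (unadjusted p = 0.0076, adjusted p = 0.151, DESeq2 adjusted p = 0.0539). Selenow, a small thiol-redox selenoprotein, fell from 48.5, 52.7 and 62.9 CPM to 33.7, 40.1 and 42.8 CPM (-0.49 ± 0.12, adjusted p = 0.00918), where SeS RA had 121 to 145 CPM and 132 to 147 CPM, a difference of -0.61 ± 0.17 (unadjusted p = 0.00231, adjusted p = 0.116, DESeq2 adjusted p = 0.00753). Selenoh, a nucleolar selenoprotein, stood at 14.4, 16.7 and 24.7 CPM and 12.2, 13.9 and 14.9 CPM and was not called (adjusted p = 0.0636), while SeS RA had 24.8 to 33.3 CPM and 30.4 to 41.3 CPM, a difference of -0.81 ± 0.24 (unadjusted p = 0.00275, adjusted p = 0.12).

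Other selenoproteins stayed closer to their PN1 level. Gpx3, the plasma glutathione peroxidase, stood at 80.3, 80.6 and 78.8 CPM and 61.2, 61.1 and 65.3 CPM (-0.35, adjusted p = 0.203), and Selenop, the selenium carrier of plasma, at 444, 390.2 and 486 CPM and 363, 331 and 345 CPM (-0.34, adjusted p = 0.653). Gpx4, which reduces lipid peroxides in membranes, stood at 308, 228 and 310.4 CPM and 256, 220.2 and 256 CPM (-0.21, adjusted p = 0.337). Txnrd1, the cytosolic thioredoxin reductase, rose from 63.7, 62.2 and 77.1 CPM to 79.1, 92.4 and 86.5 CPM (0.35 ± 0.09, adjusted p = 0.0113), and lost that call with the scaling from genes of at least 5 CPM, under which 5 selenoproteins fell and 0 rose. That scaling gave 435 lower and 353 higher calls over all genes, in place of 133 and 1134. Without PN1 replicate 2 the calls among selenoproteins were 2 lower and 0 higher. None of 11 genes of selenocysteine synthesis and selenium uptake was called (median 0.07). Of 25 NRF2 targets and glutathione genes 1 rose (4%, against 9.2% of all genes) and 0 fell (median 0.09). It was Srxn1, which repairs oxidized peroxiredoxins, from 13, 11.6 and 16.7 CPM to 17.5, 21.7 and 21.2 CPM (0.55 ± 0.16, SeS 0.07, not called). Its call was lost without PN1 replicate 2. The NRF2 targets Nqo1 and Gclc had log2 fold changes of 0.20 and 0.17 with no call.

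**Figure D4:**
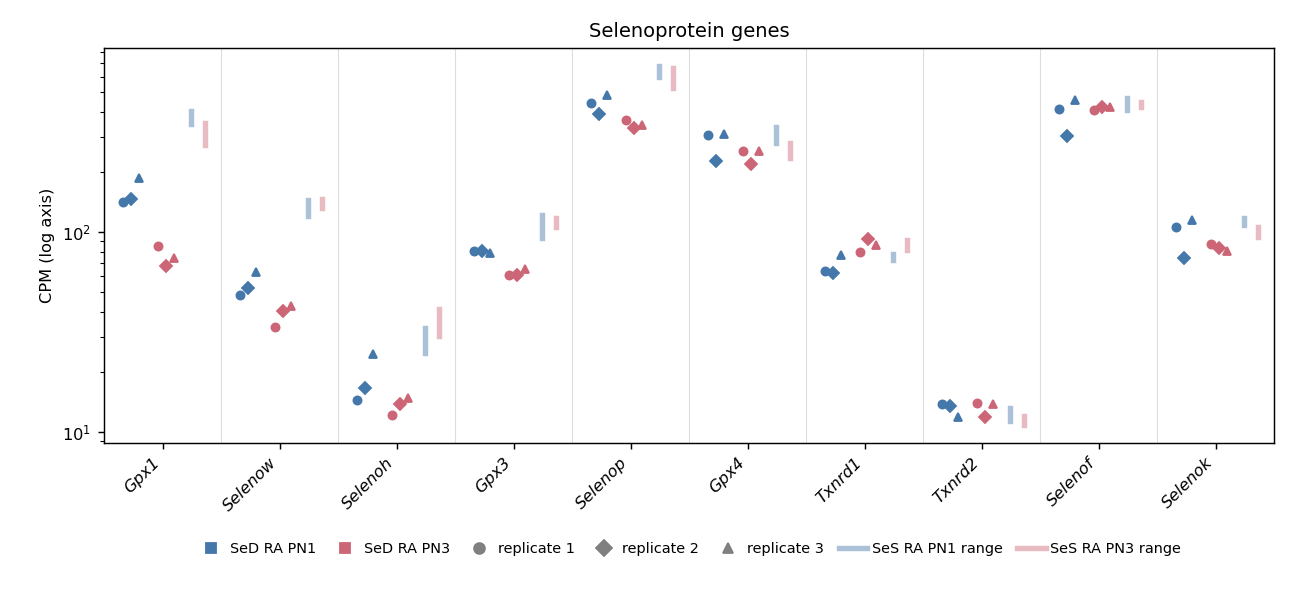
CPM on a log axis of 10 selenoprotein genes in each SeD RA library (circles, diamonds and triangles for replicates 1, 2 and 3), with pale bars for the range in SeS RA at the same age. Gpx1, Selenow and Selenoh lie below the SeS ranges at PN3, Gpx1 falls from 141 to 187 CPM at PN1 to 67.6 to 85.4 CPM at PN3, and Gpx4 and Txnrd2 overlap between the ages.

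Chaperone and sterol genes gave small counts. Of 18 heat shock and chaperone genes 3 rose (16.7%, against 9.2% of all genes) and 0 fell (median 0.26), and 0 were called without PN1 replicate 2. Hsph1, a nucleotide exchange factor of Hsp70, rose from 41.9, 25.1 and 31.2 CPM to 56.4, 51.7 and 45 CPM (0.64 ± 0.15, adjusted p = 0.00688), and PN1 replicate 2 was its lowest library. The Hsp90 co-chaperone Chordc1 rose by 0.50 and the endoplasmic reticulum chaperone Hsp90b1 by 0.41. Of 22 cholesterol genes 0 rose and 2 fell (9.09%, against 1.08% of all genes, median -0.06). Insig1, a partner of the sterol sensor, fell from 56.2, 49 and 74.6 CPM to 43.8, 42.4 and 46.4 CPM (-0.44 ± 0.15). With the scaling from genes of at least 5 CPM 4 cholesterol genes fell, and without PN1 replicate 2 1 did. The lower calls over all genes were 435 and 41 in these settings. The sterol response element TCACNCCAC, searched on both strands, stood in 1 of 16 matched promoters of this list (6.25%) against 1.22% of all.

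The same age step in SeS RA gave 134 calls among the 12323 genes (1.09%), 89 higher (0.722%) and 45 lower (0.365%), with a median log2 fold change of 0.03. A gene was called in both diets with the same sign in 72 cases and with opposite signs in 0, and 85% of the 1267 SeD calls had a SeS log2 fold change of the same sign, against 66.6% of all 12323 genes. The 2 comparisons share no library, but their counts do not show that the diets differ. The test of the difference between the age steps called 0 genes (0%) in edgeR, with the smallest adjusted p at 0.106, while 838 genes (6.8%) had an unadjusted p under 0.05, DESeq2 called 132 and limma with library weights 640. The limma weights of SeD RA PN1 were 6.31 for replicate 1, 0.259 for replicate 2 and 0.173 for replicate 3. The PN1 mean of that fit thus rests mostly on replicate 1, a library with receptor gene reads. Single SeS libraries decided the SeS count, which was 1 without PN1 replicate 1 or without PN1 replicate 3 and 324 without PN1 replicate 2. The difference reuses the SeD libraries by which genes named for their SeD change were chosen, which favours a small unadjusted p in them. That holds as well for the 71 steady genes above. Cebpg, a leucine zipper factor among them, is described by 57.2, 37 and 40.2 CPM and 73.1, 72.1 and 67.3 CPM in SeD RA (0.66 ± 0.12) and 0.00 in SeS RA (difference 0.66 ± 0.17, unadjusted p = 0.00106, adjusted p = 0.106). Tnpo1, an importin among them, stood at 151, 124 and 153 CPM and 189, 200 and 187 CPM (0.43 ± 0.09) against -0.05 in SeS RA (difference 0.48 ± 0.13, unadjusted p = 0.00135, adjusted p = 0.107).

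**Figure D5:**
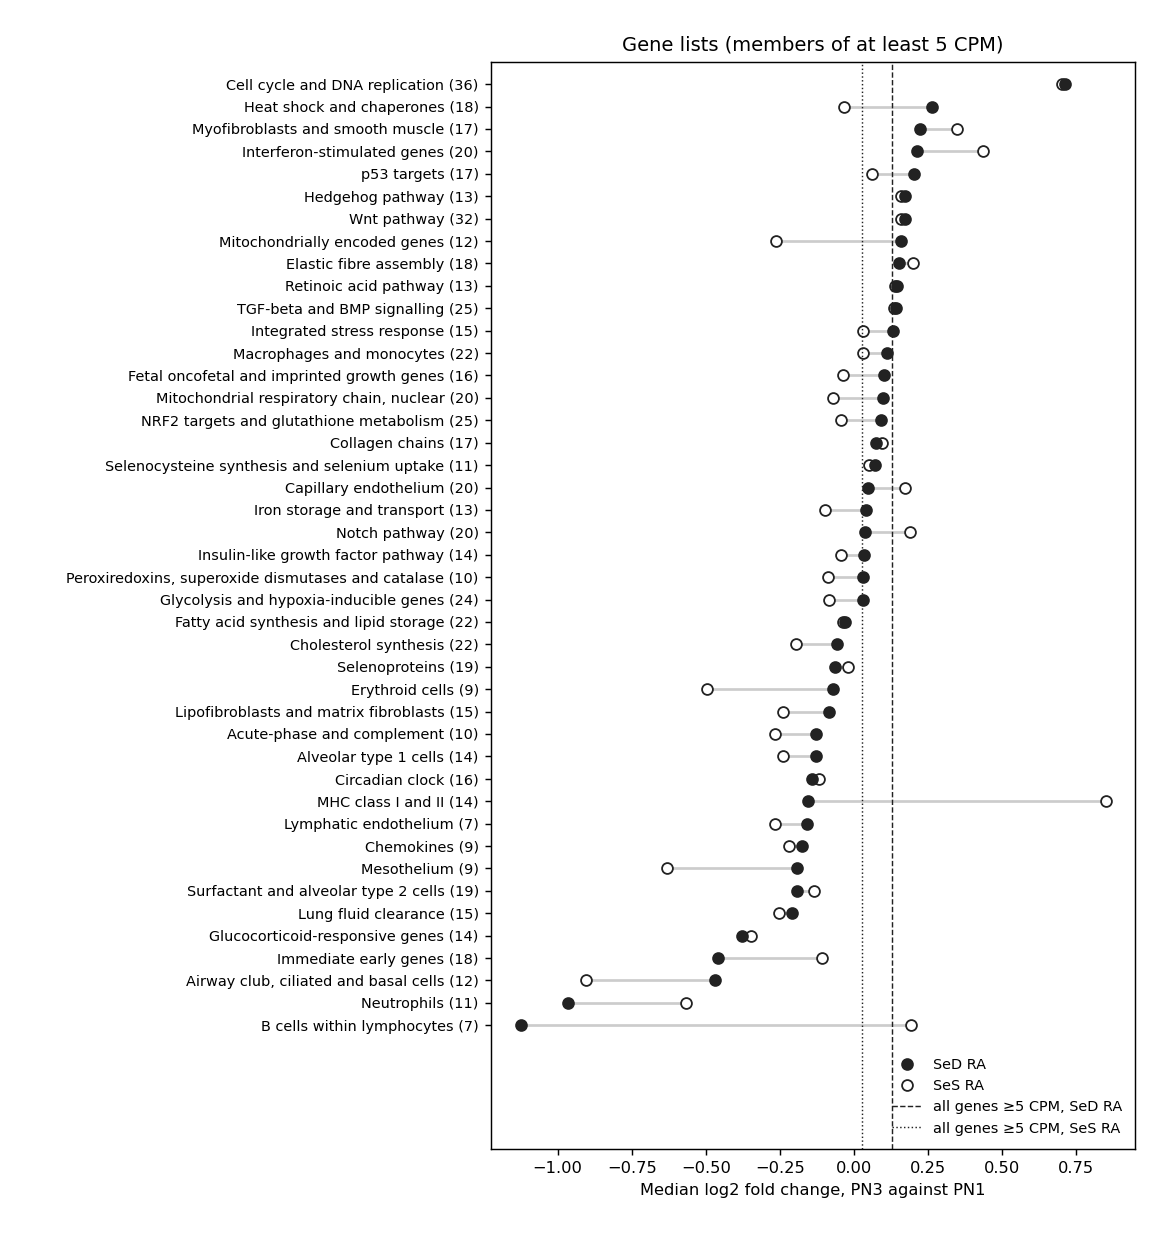
Median log2 fold change of PN3 against PN1 for gene lists with at least 7 members of at least 5 CPM, on a horizontal axis in log2 units, with filled points for SeD RA and open points for SeS RA. The lymphocyte, heart muscle and X- and Y-linked lists are left out. The B cell genes, set off after the values were seen, stand in place of the lymphocyte list. The dashed and dotted lines are the medians of all genes of at least 5 CPM, 0.13 in SeD and 0.03 in SeS. Cell cycle genes lie near 0.7 in both diets, neutrophil genes are lower in both, and B cell genes lie at -1.12 in SeD and 0.19 in SeS.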

How the data were processed

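The deposited sheet held counts of reads per gene that the authors had made with HISAT2 and featureCounts after FastQC and Trimmomatic, per the labels, on build GRCm39, with no normalization. The annotation release is not given in the sources used here. Column names were matched to samples through the sheet of groups, and 0 count columns were left unused. The sheet held 57010 genes, 415 of them without a symbol. The authors' normalized values, fold changes and p-values from DESeq2 were not used.

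Counts of all 24 libraries were fitted as 8 group means (16 residual degrees of freedom, common biological coefficient of variation 0.263) with edgeR 4.0.16 in R 4.3.3. Genes were kept by filterByExpr (minimum count 10, minimum total 15), scaled by TMM, and tested by the quasi-likelihood F test with Benjamini-Hochberg adjustment over 23831 genes. CPM are TMM-scaled unless given as of the library total, errors after ± are standard errors of the log2 fold change (derived from the fold change and its F), and the prior count was 0.125.

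Lists and libraries were chosen with earlier results of these data known. Named genes are the 12 highest and 12 lowest called changes without overlap of libraries, the 6 members of each list with the smallest p and genes the study followed. Other genes of a list and the examples among the 71 steady calls were named after their values were seen. On simulated counts for SeD RA PN3 against PN1 (23831 genes, 200 changed), 41 of 50 genes with 2-fold higher and 38 of 50 with 2-fold lower values were found, 16 and 17 of 50 at 1.5-fold, and 4 of 23631 unchanged genes were called. Apart from the 200 genes both ages had the same rates, so neither the receptor gene excess nor the shift of the median was modelled. In the data 5174 genes were called, so these shares do not measure the error or power of the real comparison. Alternatives were other scalings, filters, sets of libraries, a sex term, a replicate block, DESeq2 1.42.0, limma 3.58.1 with library weights and each replicate left out. Gene positions are from the GENCODE annotation of GRCm39, promoters from RefSeq. Some single-gene results are not reported here.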

Additional observations from a re-analysis of the deposited data

Results flagged for a closer look

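Groups of 3 libraries are too small for a test of outlying samples. Reads on odorant and vomeronasal receptor genes, which no comparison uses, reached 335 CPM of the library total in SeD RA PN1 replicate 1. They reached 880 CPM in SeD RA PN1 replicate 2, and both were above the 26.3 to 46.3 CPM of the SeS RA libraries. Genes under 5 CPM, left out of the description, gave 3797 lower calls at PN3 in SeD RA against 110 higher ones, at a median log2 fold change of -0.62, and 33 lower calls in SeS RA. Their part in the results on genes of at least 5 CPM was not tested beyond the values without PN1 replicate 2 and with factors from those genes alone.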

How the results depend on the processing

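At this depth and number of libraries the test found 16 and 17 of 50 genes simulated with a 1.5-fold rise or fall, in a simulation where only 200 genes changed. An absent call therefore does not exclude a change of that size. In SeD RA the 1267 calls stood at 980 with DESeq2's size factors, 1223 with DESeq2, 985 from the 12 RA libraries and 1230 without the library whose title and oxygen level disagree. They became 788 with TMM from genes of at least 5 CPM, 761 without a filter, 152 when those genes alone were fitted, 29 from the 6 libraries alone (12 higher and 17 lower), 45 at a log2 fold change of at least 1 and 3468 with limma and library weights. Leaving out 1 library gave 140 (without PN1 replicate 2) to 2050 (without PN1 replicate 3), and, added after the data were seen, 617, 122 and 734 without PN1 replicates 1, 2 and 3 and 825, 201 and 380 without PN3 replicates 1, 2 and 3 with TMM from genes of at least 5 CPM. In SeS RA the 134 calls became 219 when genes of at least 5 CPM alone were fitted, 49 from the 6 libraries alone, 252 from the 12 RA libraries, 277 with sex as a term, 58 at a log2 fold change of at least 1, 641 with DESeq2, 1515 with limma and 1 to 324 with 1 library left out. The difference between the age steps went from 0 calls to 2 from the libraries of the groups compared or from the 12 RA libraries, 132 with DESeq2, 640 with limma, 0 to 98 with 1 library left out (98 without SeD RA PN1 replicate 3) and 0 to 57 with TMM from genes of at least 5 CPM, the 57 again without that library. Fewer genes or libraries enter some of these fits by construction, and otherwise the cause was not tested. P4ha1 turned to -0.26 under limma with library weights. That fit weighted SeD RA PN1 replicate 1 at 6.31 and replicates 2 and 3 at 0.259 and 0.173. Its counts for SeD RA and for the difference therefore rest mostly on replicate 1 at PN1.

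Same-numbered libraries of the 2 ages deviated together with r = 0.61, 0.09 and 0.05 in SeD RA and -0.05, 0.55 and 0.19 in SeS RA, so the numbers were not taken as pairs. With the replicate number as a block, 1189 genes were called in SeD RA, 116 in SeS RA and 0 in the difference. Of the 1267 calls 960 were shared with DESeq2, 1075 with limma, 486 with TMM from genes of at least 5 CPM and 26 with the 6 libraries alone.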

Other observations

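Of 14 MHC genes, which serve antigen presentation, 0 were called in SeD RA (median -0.16). In SeS RA 2 were called higher, against 0.722% of all genes, at a median of 0.85. The difference of the age steps called 0 genes in edgeR. An unadjusted p under 0.05 in it was reached by 11 of the 14, against 6.8% of all genes. These genes are related in function and are no separate evidence. H2-Eb1, a class II chain, stood at 6.26, 7.52 and 8.09 CPM at PN1 and 5.58, 5.59 and 5.91 CPM at PN3 in SeD RA, and at 3.96 to 4.96 CPM and 7.24 to 9.1 CPM in SeS RA. The difference was -1.20 ± 0.26 (unadjusted p = 0.000152, adjusted p = 0.106 in edgeR, 0.00395 with DESeq2). Ciita, the class II transactivator, stood at 4.95, 5.7 and 5.64 CPM and 4.5, 5.62 and 4.74 CPM in SeD RA and at 2.25 to 4.02 CPM and 4.86 to 25.9 CPM in SeS RA, with a SeS log2 fold change of 1.92. Thymus genes were also higher at PN3 in SeS RA. Rag1, a recombinase of developing lymphocytes, reached 15.3 to 163 CPM there at PN3. In SeD RA it stood at 1.45, 3.26 and 8.41 CPM and 26.1, 3.28 and 8.71 CPM, where H2-Eb1 and Ciita did not follow the high PN3 library. Satb1, a chromatin organizer of thymocytes, stood at 14.2 to 18.4 CPM at PN1 and 27.2 to 123 CPM at PN3 in SeS RA. The part of the thymus genes in the MHC values was not tested.

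Igf1, a growth factor of the mesenchyme, stood at 114, 102 and 148 CPM at PN1 and 159, 192 and 197 CPM at PN3 in SeD RA, without overlap and with an adjusted p of 0.0522. The imprinted RNA H19 stood at 793, 569 and 648 CPM and 1282, 1161 and 1463 CPM, also without overlap, at 0.96 ± 0.68 on the log2 scale and an adjusted p of 0.352. Clock, the core circadian factor, rose from 71.5, 60.7 and 74.6 CPM to 88.3, 88.1 and 88.1 CPM (0.35 ± 0.12, adjusted p = 0.0387), where SeS RA had -0.19, a difference of 0.55 ± 0.17 (unadjusted p = 0.00409, adjusted p = 0.128). The call of Clock was kept in 9 of 18 alternative settings. It was lost with the scaling from genes of at least 5 CPM, without a filter and when those genes alone were fitted. The fit of the 6 libraries alone lost it too, as did leaving out PN1 replicate 1, PN1 replicate 2 or any 1 PN3 library. None of 20 nuclear and 12 mitochondrial genes of the respiratory chain was called. Of 20 interferon-stimulated genes 0 were called, at a median of 0.21 in SeD RA and 0.44 in SeS RA.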
